A study of Mus musculus with 4 samples.

Results

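The genes described here are 55 members of the transforming growth factor beta (TGF-beta), bone morphogenetic protein (BMP) and activin signalling system, taken by exact symbol from a table of 23281 mouse genes. All 55 were found. They comprise ligands with their storage proteins, receptors, SMAD proteins, antagonists, intracellular regulators and target genes. RNA sequencing covered 3 libraries of horizontal basal cells (HBCs), the reserve stem cells of the olfactory epithelium, and in 1 library of respiratory basal cells (RBCs), the stem cells of the adjoining respiratory lining. The HBCs were wild-type cells grown in culture to passage 3, with no cell sort given. The RBCs were microdissected from a mouse strain that carries KRT5-CreER and the Ai9-fl(stop)TdTomato reporter, and were sorted as TdTomato+. In that strain the keratin 5 promoter drives an inducible Cre recombinase, so the label marks keratin 5 cells and any cells that descend from them after induction. Age, sex, the time of induction and the number of animals per library are not stated in the labels. Tissue of origin, strain, culture and sorting all differ between the groups and cannot be told apart.

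TGF-beta family ligands bind a pair of type II and type I receptor kinases, which phosphorylate receptor-regulated SMADs. TGF-beta and activin act mainly through SMAD2 and SMAD3, and BMPs through SMAD1, SMAD5 and SMAD9. The activated SMADs join SMAD4 and enter the nucleus, where BMP signals typically induce the ID genes and the inhibitory SMADs. In stratified and airway epithelia, the TGF-beta arm is known for restraining division and the BMP and TGF-beta arms together for controlling when basal cells differentiate.

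Values are depth-scaled FPKM, that is, fragments per kilobase of transcript as deposited, divided by 1 factor per library. The deposited values summed to between 8377230 and 10856000 per library, and depth in reads is not stated. Means of HBC libraries carry the SD over 3 libraries, and the RBC value is always a single library. A gene was called different at a Benjamini-Hochberg adjusted p under 0.05 in limma and a change of at least 2-fold. The p-values take their spread from the HBC libraries alone and assume that the RBC library varies as they do. The labels do not say whether the 3 cultures came from separate animals, so the spread may be technical.

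Basal cell markers were present in both groups. Keratin 5 was at 18579 ± 368 in HBC cultures and 26422 in the RBC library, and Trp63, the basal transcription factor, was at 545 ± 12.8 and 4296. Of 8 basal markers tested, 5 were called higher in sorted RBCs and 1 in HBC cultures, beside 34.2% and 12.8% of all genes tested. The 1 was Krt17, at 17961 ± 791 and 8369. Keratin 5 and Itga6 (1280 ± 21.3 and 842) were not called. The RBC library also held far more transcript of other cell types. Of 62 marker genes of leukocytes, fibroblasts, endothelium, smooth muscle, glia, olfactory neurons and ciliated cells, 60 were tested. Of these, 56 were called higher in sorted RBCs and 1, Egfl7, in the HBC libraries, beside 34.2% and 12.8% of all genes tested. Of the 60, 34 averaged below 1 in the cultures and passed the filter on low values only through the RBC library, and among the other 26, 24 were called towards the RBC library. Their summed level ran from 979 to 1080 in HBC cultures and was 34974 in the RBC library. Fibroblast markers summed to between 51.3 and 70.9 per culture and to 7776 in sorted RBCs, where Dcn alone was at 6885. Leukocyte markers summed to between 41.4 and 47.5 per culture and to 16144.5 in sorted RBCs, where the lysozyme gene Lyz2 alone was at 14733. Apart from Lyz2 and Cd74 (998), no leukocyte marker passed 69.0 there, and Ptprc was at 10.5. Lyz2 and Dcn thus carried most of these sums and much of the summed level of all these markers. Sums for olfactory neurons were 133 to 169 against 5242, those for ciliated cells 171 to 207 against 3546, and those for glia 4.45 to 12.8 against 259. Endothelial markers without Egfl7 (85.4 to 138 against 19.3) summed to between 3.42 and 3.81 per culture and to 134 in sorted RBCs. Smooth muscle and pericyte markers without Rgs5 (391 to 431 against 369) summed to between 35.2 and 40.2 per culture and to 1485 in sorted RBCs. Endothelial Cldn5, Emcn and Tie1 and the leukocyte genes Csf1r, Tyrobp and C1qb were listed at 0 in all 3 HBC cultures. In the RBC library Cldn5 was at 23.6, Csf1r at 35.4 and the fibroblast collagen Col1a1 at 360.1. The part of these other cells in the results below was not tested. For a bulk sample, fewer cells of a type and less RNA per cell cannot be told apart.

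Calls towards the RBC library outnumbered those towards the cultures. Of the 54 members tested, 24 were called higher in sorted RBCs, where the share among all 16438 genes tested was 34.2%, and 6 were called higher in HBC cultures, where that share was 12.8%. The other 24 were not called, and Nodal, a ligand of the early embryo listed at 0 in all 4 libraries, was not tested. The members' median log2 change (RBC minus HBC) was 0.98, beside 0.45 for all genes tested. With equal library medians, the median of all genes moved to -0.04 and that of the members to 0.48, and calls split 18 to 9. Under quantile normalization calls split 21 to 8. Among all called genes, the share higher in the RBC library was 72.7%, and it was 54.3% with equal medians and 46.3% under quantile normalization. The RBC value lay above all 3 HBC values for 39 members, which holds for 58.6% of all genes tested, and below all 3 for 12, which holds for 35.5%. Bmp5, Smad9 and Nog averaged below 1 in HBC cultures and passed the filter on low values only through the RBC library. The direction of their calls was thus fixed in advance, and these calls add no support. The same holds in the other direction for Grem1, listed at 0 in the RBC library.

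**Figure D1:**
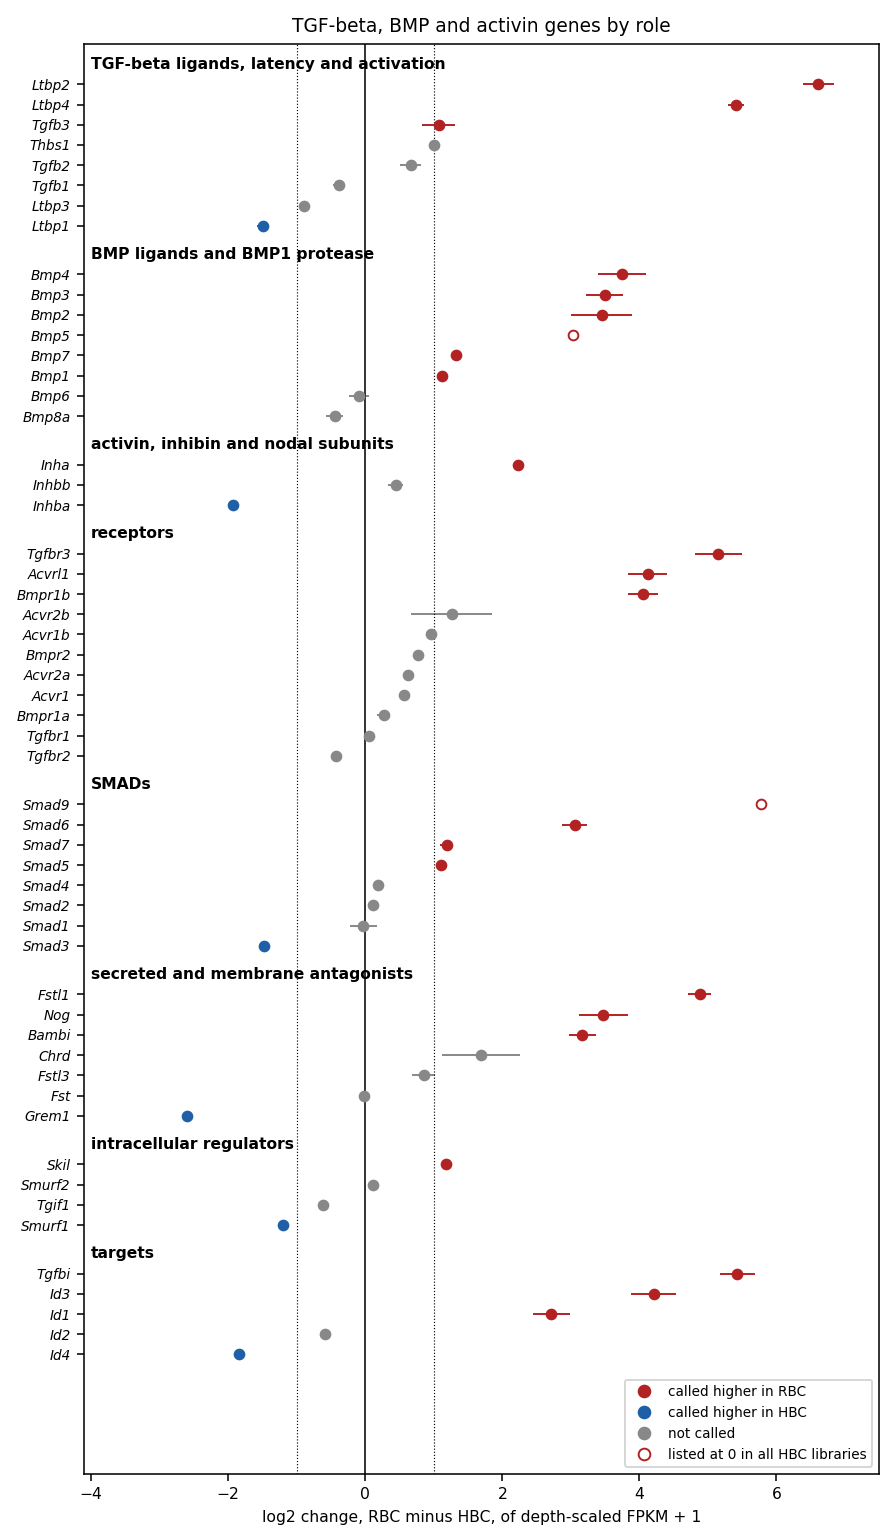
The plot gives the log2 change (RBC minus HBC, horizontal axis, on the scale of depth-scaled FPKM + 1) of the 54 members tested, sorted within 8 roles, with limma's standard error as bars and the 2-fold limits dotted. Red points (24) were called higher in sorted RBCs and blue points (6) in HBC cultures, and open points were listed at 0 in all HBC libraries and carry no error. Each of the 8 roles holds points on both sides of 0.

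The TGF-beta ligands themselves differed by at most 2.10-fold between the groups, and the latent binding proteins by up to 166-fold. Tgfb1, the main isoform in both groups, stood at 319.5, 361 and 345 in HBC cultures 1, 2 and 3 and at 261 in the RBC library, a difference under the 2-fold minimum (limma adjusted p = 0.0406). Tgfb2 was at 69.6 ± 7.06 in HBC cultures and 111 in the RBC library, and was not called. For Tgfb3 the HBC values were 63.3, 86.0 and 65.8, and the RBC value was 151. This 2.10-fold difference was called (limma adjusted p = 0.0372), but not without HBC culture 1 (0.111) or 3 (0.123), with values as deposited (0.0925), with equal medians (0.136) or under quantile normalization (0.0956). The Tgfb3 call thus rested on the choice of library and scaling, with adjusted p from 0.0196 to 0.136 over the alternatives.

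Latent TGF-beta binding proteins are matrix proteins, most of which tether the inactive ligand. Ltbp4 was at 65.5, 65.3 and 56.7 in HBC cultures and at 2691 in the RBC library, a 43.0-fold difference (log2 change 5.41 ± 0.12 SE, limma adjusted p = 0.000492). Its HBC values lay close together and far below the RBC value. Ltbp2, the family member that does not bind latent TGF-beta, was 166-fold apart. It was barely present in the cultures, at 1.09, 1.82 and 1.29, and was at 231 in the RBC library (limma adjusted p = 0.00109). Ltbp1 ran the other way, at 491, 512 and 455 in HBC cultures and 172 in the RBC library, and was 2.82-fold higher in the cultures (log2 change -1.49 ± 0.09 SE, limma adjusted p = 0.00273). Ltbp3, at 945 ± 40.9 in HBC cultures and 509 in the RBC library, missed the 2-fold minimum and passed it with equal medians (log2 change -1.39). Thrombospondin 1, Thbs1, a matrix protein that can activate latent TGF-beta, was at 392 ± 5.77 and 784, a ratio just short of 2-fold. It was called with values as deposited, with equal sums, under quantile normalization and without HBC culture 2. Fibroblast and smooth muscle markers were higher in the same RBC library (summed levels above), and their part in the Ltbp4 and Ltbp2 values was not tested.

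Of the 8 BMP ligand and processing genes, 6 were called higher in sorted RBCs and none in HBC cultures in limma, a list that includes Bmp5, beside 34.2% and 12.8% of all genes tested. Bmp7, the most abundant BMP in both groups, was at 322, 316 and 295 in HBC cultures and 779 in the RBC library, a 2.50-fold difference (limma adjusted p = 0.00210). With equal medians its log2 change was 0.82, under the minimum. Bmp2 and Bmp4, closely related ligands of many developing epithelia, were low in the cultures. Bmp4 was at 5.17, 5.19 and 3.08 in HBC cultures and 71.2 in the RBC library, 15.9-fold higher (limma adjusted p = 0.00644). Bmp2 was at 5.51, 6.44 and 3.18 against 63.1, 12.5-fold higher (limma adjusted p = 0.0117), and it lost its call without HBC culture 1 (0.0594, within a range of 0.00772 to 0.0594 over the alternatives). Bmp3, an atypical BMP that opposes others, was at 1.59, 2.56 and 1.58 against 31.4 (limma adjusted p = 0.00443). All 3 of these ligands showed single-digit values in every culture and values above 30 in the RBC library. Bmp5 was listed at 0 in all 3 HBC cultures and was at 7.15 in the RBC library. Bmp1, a protease that trims procollagens and cleaves the BMP antagonist chordin, was at 105.4 ± 2.89 and 231, and fell under the 2-fold minimum with equal medians (log2 change 0.62) and under quantile normalization (0.80). Bmp6 was at 55.1 ± 5.33 and 51.4, with the RBC value inside the HBC range. Its exons overlap those of Txndc5 on the opposite strand, a gene at 1088 in HBC cultures, so Bmp6 reads cannot be told apart from Txndc5 reads there if strand was not used. Bmp8a stayed below 2 in each library.

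Activins are dimers of inhibin beta subunits, and inhibins pair a beta subunit with the alpha subunit and oppose activin. Inhba and Inha differed in opposite directions. Inhba, the beta A subunit, was at 255, 258 and 255 in HBC cultures and 66.2 in the RBC library, so it was 3.86-fold higher in the cultures (log2 change -1.93 ± 0.02 SE, limma adjusted p = 0.000125). The 3 cultures were almost level for this gene. Inha, the alpha subunit, was at 68.9, 64.1 and 65.1 in HBC cultures and 314 in the RBC library, 4.76-fold higher there (log2 change 2.23 ± 0.07 SE, limma adjusted p = 0.000852). Inhbb, the beta B subunit, was at 82.4 ± 5.86 and 112, was not called, and changed direction with equal medians (log2 change -0.054).

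The receptor genes that were called had low levels in the cultures. Of 11 receptors tested, 3 (27.3%) were called higher in sorted RBCs and none in HBC cultures in limma, beside 34.2% and 12.8% of all genes tested. On the adjusted p alone, without the fold minimum, 34 members of all roles passed towards the RBC library and 11 towards the cultures, beside 46.8% and 28.4% of all genes tested. Tgfbr3, or betaglycan, a co-receptor that presents TGF-beta2 and inhibin, was at 1.78, 2.55 and 3.45 in HBC cultures and 124 in the RBC library, 48.0-fold higher (limma adjusted p = 0.00345). Acvrl1, the ALK1 receptor known from endothelium, was at 5.08, 7.07 and 7.78 against 130.2, 19.6-fold higher (limma adjusted p = 0.00379). Bmpr1b, a type I BMP receptor, was at 14.7, 10.9 and 13.4 against 229.6, 17.7-fold higher (limma adjusted p = 0.00248). For these 3 genes the RBC value lay above every HBC value, which also holds for 58.6% of all genes tested. Endothelial marker genes without Egfl7 summed to 134 in the RBC library beside the Acvrl1 value of 130.2, and their part in it was not tested.

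The core signalling receptors were well expressed in both groups. Tgfbr2, the type II TGF-beta receptor and the most abundant receptor gene, was at 1349.8, 1401 and 1352 in HBC cultures and 1019.6 in the RBC library, a difference under 2-fold (limma adjusted p = 0.00427). Its partner Tgfbr1 was at 464 ± 14.0 and 480.5, and its direction turned with equal medians (log2 change -0.45). Bmpr1a, the main type I BMP receptor, was at 579 ± 35.9 and 697, and also turned with equal medians (log2 change -0.24). Acvr1b, the type I activin receptor, was at 361 ± 7.91 and 704, just under 2-fold, and it was called with values as deposited, with equal sums and under quantile normalization. Bmpr2 (192 ± 6.88 and 329.5), Acvr1 (204 ± 9.13 and 304) and Acvr2a (221 ± 9.45 and 341) were not called. Acvr2a overlaps Orc4 on the opposite strand. Acvr2b had the widest spread of the receptors relative to its mean, at 11.6, 27.3 and 16.6 in HBC cultures and 43.2 in the RBC library, and the test did not pass (limma adjusted p = 0.157).

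Among 8 SMADs, Smad3, a carrier of TGF-beta and activin signals, was called higher in the cultures, and 4 were called towards the RBC library, beside 12.8% and 34.2% of all genes tested. The 4 were the BMP-branch Smad5 and Smad9 and the inhibitory Smad6 and Smad7. Of these, Smad9 passed the filter on low values only through the RBC library. Smad3 was at 1445, 1427 and 1437 in HBC cultures and 513 in the RBC library, 2.80-fold higher in the cultures (log2 change -1.48 ± 0.01 SE, limma adjusted p = 6.23e-05). It was the most abundant SMAD in every HBC library, with almost no spread. Smad5, a BMP SMAD, was at 231 ± 11.1 and 501 (limma adjusted p = 0.00324), and Smad9, another BMP SMAD, was listed at 0 in all 3 HBC cultures and was at 53.8 in the RBC library. Smad1, Smad2 and the shared partner Smad4 were at 275 ± 38.4, 202 ± 8.19 and 499 ± 6.57 in HBC cultures and at 269, 218 and 565 in the RBC library. None of these 3 was called in limma, and each changed direction under at least 1 scaling. Smad6, the inhibitory SMAD that acts mainly on BMP signals, was at 31.8, 26.9 and 34.2 in HBC cultures and 263 in the RBC library, 8.51-fold higher (log2 change 3.06 ± 0.18 SE, limma adjusted p = 0.00290). Smad7, the broader inhibitor, was at 70.8, 67.7 and 63.0 against 154, 2.29-fold higher (limma adjusted p = 0.00477). The calls of Smad5 (log2 change 0.61) and Smad7 (0.69) fell under the 2-fold minimum with equal medians, and that of Smad7 also under quantile normalization (0.63).

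Of 5 target genes, 3 were called towards the RBC library and 1 towards the cultures, beside 34.2% and 12.8% of all genes tested. The 4 ID genes encode helix-loop-helix proteins without a DNA-binding region, which sequester other helix-loop-helix factors and hold back differentiation, and they did not move as a block. Id1 was at 334, 486 and 389 in HBC cultures and 2617 in the RBC library, 6.49-fold higher (log2 change 2.71 ± 0.27 SE, limma adjusted p = 0.00725). Id3 was at 52.4, 72.8 and 81.3 against 1271, 18.5-fold higher (log2 change 4.21 ± 0.33 SE, limma adjusted p = 0.00452). For both, the RBC value lay above every HBC value (culture SD 76.7 for Id1 and 14.9 for Id3). That also holds for 58.6% of all genes tested. Id4 was reversed, at 1899, 1775 and 1826 in HBC cultures and 509 in the RBC library, 3.60-fold higher in the cultures (log2 change -1.85 ± 0.05 SE, limma adjusted p = 0.000728). Id2 was at 1903 ± 57.3 and 1264, under the 2-fold minimum, and passed it as higher in HBC cultures with equal medians (log2 change -1.09). Tgfbi, a secreted matrix protein named for its induction by TGF-beta, was at 4.21, 5.26 and 6.31 in HBC cultures and 266 in the RBC library, 50.6-fold higher (limma adjusted p = 0.00190). Fibroblast and leukocyte markers were higher in the same RBC library, and their part in the Tgfbi, Id1 and Id3 values was not tested.

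**Figure D2:**
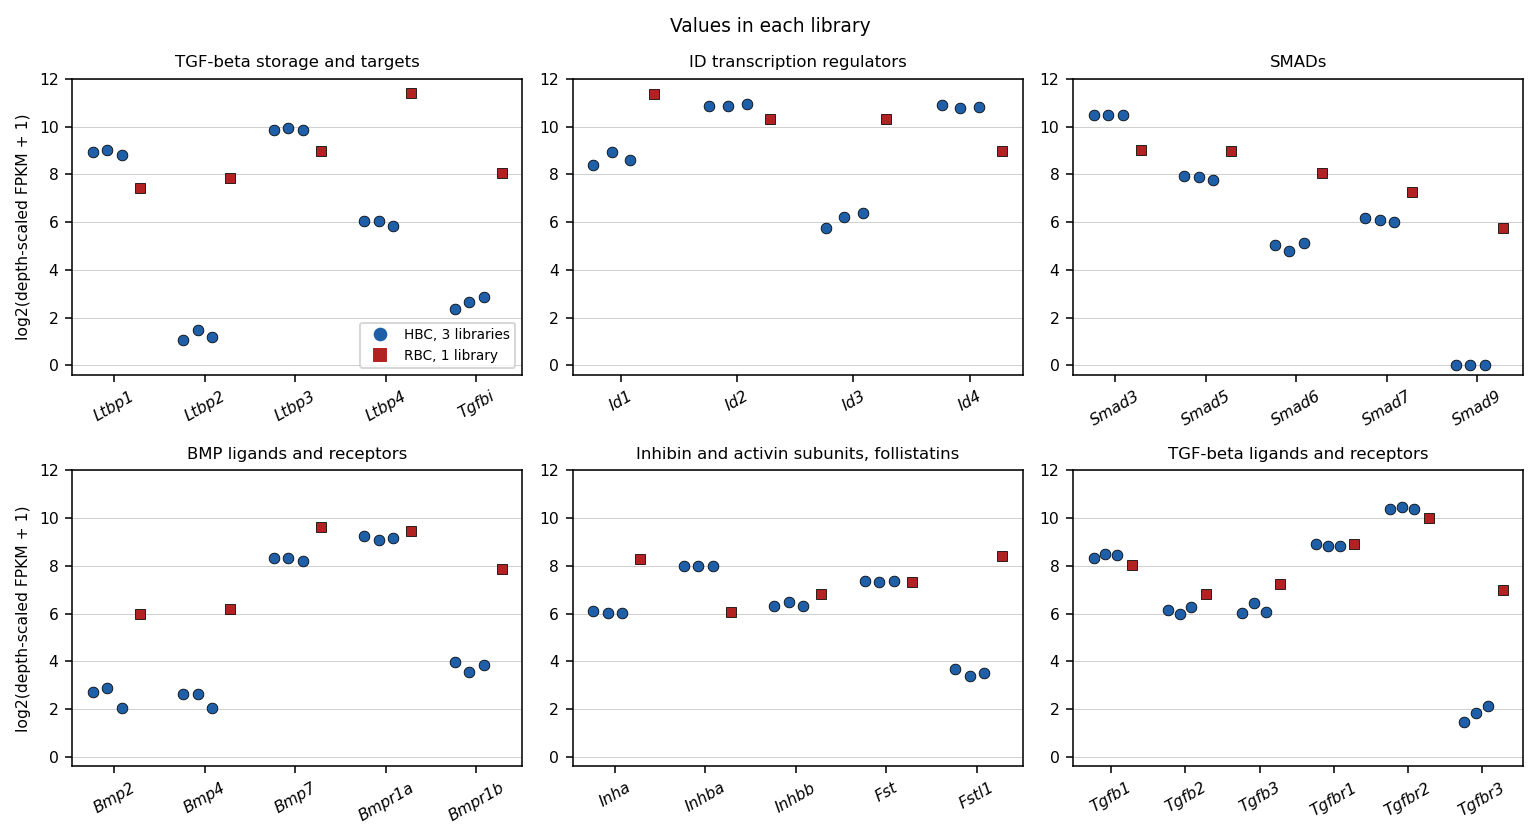
Each point is 1 library, plotted as log2(depth-scaled FPKM + 1) on the vertical axis, with blue circles for the 3 HBC libraries and red squares for the RBC library, in 6 groups of genes. HBC points of a gene lie close together; Smad3, Id4, Inhba and Ltbp1 drop in the RBC library, whereas Smad6, Id1, Id3, Inha and Ltbp4 stand above the HBC points.

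The start regions of Smad6 and of the ID genes are shown because these are known SMAD target genes and differed in direction between the groups. They come from RefSeq on GRCm38.p6, which is not the build of the expression table, and each runs from 240 bases before to 10 bases after the start of the gene, 5′ to 3′ on the gene's strand. Id1 had no entry. Capitals mark exact matches to GTCTAGAC, the palindromic SMAD-binding element, or to GGCGCC, a GC-rich element that SMAD proteins can bind. Both motifs read the same on either strand and were searched in windows of 250 bases before to 50 bases after the start.
Smad6 (chr9:64022050-64022299, minus strand): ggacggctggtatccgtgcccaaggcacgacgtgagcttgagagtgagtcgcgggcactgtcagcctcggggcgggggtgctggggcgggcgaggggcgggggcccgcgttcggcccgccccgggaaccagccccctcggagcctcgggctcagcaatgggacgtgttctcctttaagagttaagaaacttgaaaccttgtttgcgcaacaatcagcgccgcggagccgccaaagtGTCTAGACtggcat
Id2 (chr12:25096083-25096332, minus strand): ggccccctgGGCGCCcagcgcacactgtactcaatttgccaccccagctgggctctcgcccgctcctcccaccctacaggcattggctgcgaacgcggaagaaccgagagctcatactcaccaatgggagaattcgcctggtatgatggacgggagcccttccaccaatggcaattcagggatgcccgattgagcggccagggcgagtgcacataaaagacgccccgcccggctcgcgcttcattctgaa
Id3 (chr4:136143582-136143831, plus strand): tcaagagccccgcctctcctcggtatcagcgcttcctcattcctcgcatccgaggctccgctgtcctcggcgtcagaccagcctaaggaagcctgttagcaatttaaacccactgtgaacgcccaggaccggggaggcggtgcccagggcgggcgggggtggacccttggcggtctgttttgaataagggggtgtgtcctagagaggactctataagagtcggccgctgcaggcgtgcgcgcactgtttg
Id4 (chr13:48260876-48261125, plus strand): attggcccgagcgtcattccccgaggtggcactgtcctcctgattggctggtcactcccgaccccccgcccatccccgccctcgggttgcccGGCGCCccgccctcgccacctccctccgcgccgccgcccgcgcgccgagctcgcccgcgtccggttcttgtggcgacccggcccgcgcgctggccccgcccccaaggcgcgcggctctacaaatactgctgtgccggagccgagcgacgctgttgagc

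The Smad6 window held GTCTAGAC across the start site itself, from 4 bases before to 4 bases after it. Among 32851 RefSeq start windows of the same length, 70 (0.213%) held that element, and among 51 windows of 39 matched members only that of Smad6 did. GGCGCC stood in the windows of Id2 and Id4, first base 231 and 148 bases before the start, and not in that of Id3. It was in 15 of 51 member windows (29.4%) and in 11.9% of all windows. Members with it included genes of both directions and uncalled ones, such as Smad5, Smad9, Tgfbi, Grem1 and Bmpr2. A match describes the letters only.

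Of 7 antagonists outside the cell or on its surface, 3 were called towards the RBC library and 1 towards the cultures. Among all genes tested these shares were the same 34.2% and 12.8%. The 3 include Nog, which passed the filter on low values only through the RBC library. Fst, or follistatin, which binds activin, was at 162 ± 4.53 in HBC cultures and 160.1 in the RBC library, inside the HBC range, and its direction turned with values as deposited (log2 change 0.09). Fstl1, a follistatin-like glycoprotein made largely by mesenchymal cells, was at 11.9, 9.56 and 10.5 in HBC cultures and 341 in the RBC library, 32.0-fold higher (limma adjusted p = 0.00112). Bambi, a decoy receptor that lacks the kinase, was at 13.4, 17.1 and 13.8 against 140.3, 9.48-fold higher (limma adjusted p = 0.00318). Both were low but measurable in every culture. The BMP antagonist noggin, Nog, was at 0, 0 and 0.535 in HBC cultures and 11.8 in the RBC library. Its call was lost with a pseudocount of 0.1 (limma adjusted p = 0.0524) and under quantile normalization (0.114), and its adjusted p ran from 0.000341 to 0.114 over the choices tried. Grem1, or gremlin, a BMP antagonist, was at 4.83, 5.17 and 5.13 in HBC cultures and was listed at 0 in the RBC library. It passed the filter on low values only through the cultures, so the direction of its call was fixed in advance. Chordin, Chrd, was at 1.13, 1.82 and 0.299 against 5.41, and Fstl3 was at 31.5 ± 3.22 against 57.6. Neither was called in limma. Fibroblast markers were higher in the RBC library, and their part in the Fstl1 value was not tested.

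Inside the cell, the ubiquitin ligases and corepressors that limit SMAD signals showed smaller differences. Smurf1, which marks SMADs and receptors for degradation, was at 543, 573 and 570.2 in HBC cultures and 243 in the RBC library, 2.31-fold higher in the cultures (limma adjusted p = 0.00120). Its relative Smurf2 was at 339 ± 2.66 and 364, and turned direction with equal medians (log2 change -0.40). Skil, or SnoN, a corepressor of SMAD complexes, was at 208, 219.6 and 216 against 488, 2.27-fold higher in the RBC library (limma adjusted p = 0.00119), and fell under the minimum with equal medians (log2 change 0.68). Tgif1, another corepressor and the most abundant of these 4 genes, was at 1759.7, 1736 and 1826 against 1158, under 2-fold, and was called higher in HBC cultures with equal medians (log2 change -1.12).

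Shares within a gene family, which do not depend on the single factor that scales a library, showed how far the make-up of each family differed. Each share is a gene's part of the summed FPKM of its family in that library, and with 3 libraries against 1 no exact permutation test can go below p = 0.25 (one-sided), so the shares are described and not tested. They were not computed under quantile normalization, which alters ratios between genes. Id4 and Id2 made up 43.6% ± 1.91 and 45.2% ± 0.837 (SD, n = 3) of ID transcript in HBC cultures and 8.99% and 22.3% in the RBC library. Id1 and Id3 made up 9.58% ± 1.79 and 1.63% ± 0.333 in HBC cultures and 46.2% and 22.5% in the RBC library. The family's summed level differed by only 1.35-fold, so the groups differed more in which ID genes were present than in their total.

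Shares of the receptor SMADs also differed between the branches. SMADs of the BMP branch (Smad1, Smad5 and Smad9) held 23.6% ± 1.46 (SD, n = 3) of receptor SMAD transcript in HBC cultures and 53.0% in the RBC library. Smad3 alone held 67.0% ± 1.45 (SD, n = 3) in HBC cultures and 33.0% in the RBC library. Smad2, of the same branch as Smad3, held 9.43% ± 0.304 and 14.0%, and Smad1 held 12.8% ± 1.60 and 17.3%. The family's summed level was lower in the RBC library, at 2145 ± 37.3 in HBC cultures and 1554 there. The BMP branch summed to 507 ± 39.7 and 823, and Smad2 with Smad3 to 1638 ± 13.0 and 731.

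Among latent binding proteins, Ltbp3 and Ltbp1 held 63.3% ± 0.793 and 32.5% ± 0.587 (SD, n = 3) in HBC cultures, and Ltbp4 held 4.18% ± 0.218. In the RBC library Ltbp4 held 74.7% and Ltbp1 4.77%. Inhba was the main inhibin subunit in HBC cultures (63.3% ± 0.652) and Inha in the RBC library (63.7%, against 16.3% ± 0.736 in HBC cultures). Tgfb1 held 70.8% ± 0.0710 of TGF-beta isoform transcript in HBC cultures and 49.99% in the RBC library, where Tgfb3 held 28.9%. By contrast Bmp7 held most of the BMP ligand transcript in both groups (82.1% ± 1.41 and 77.6%). The type I receptors were led by Bmpr1a in HBC cultures (35.6% ± 1.28) and by Acvr1b and Bmpr1a in about equal parts in the RBC library (27.7% and 27.4%).

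**Figure D3:**
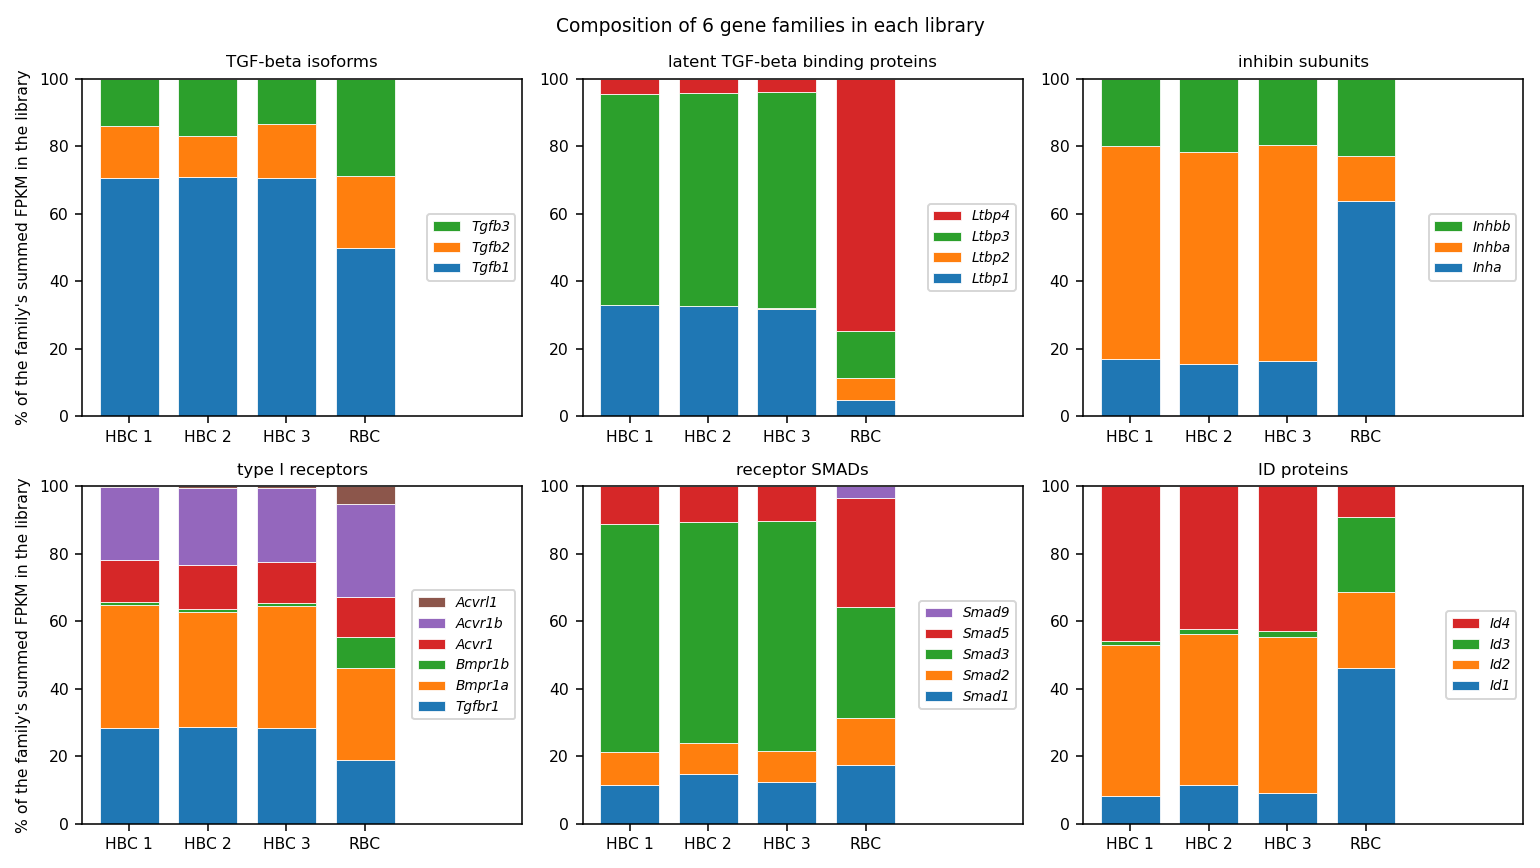
Stacked bars give each gene's share (%) of its family's summed FPKM in each of the 3 HBC libraries and the RBC library, for 6 families. The 3 HBC bars of a family are nearly alike, and in the RBC bar Ltbp4, Inha, Id1 with Id3, and Smad5 take larger shares while Ltbp3 with Ltbp1, Inhba, Id4 with Id2, and Smad3 take smaller ones.

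A list of 67 other genes of the pathway gave a similar count. Of the 47 tested, 21 were called higher in sorted RBCs and 4 in HBC cultures (44.7% and 8.51%, beside 34.2% and 12.8% of all genes tested), and their median log2 change was 0.69. Of those tested, 6 averaged below 1 in the cultures and passed the filter on low values only through the RBC library. Among called genes above 0 in each HBC culture, the one that differed most was Gdf15, a stress-induced member of the ligand family that signals through an unrelated receptor. It was at 1456, 1624 and 1568 in HBC cultures and 18.9 in the RBC library, 82.0-fold higher in the cultures (log2 change -6.28, limma adjusted p = 0.000159). Cdkn2b, the p15 inhibitor of the cell cycle and a known TGF-beta target, was at 832, 840.4 and 844 against 26.4, 31.8-fold higher in the cultures (log2 change -4.94, limma adjusted p = 5.04e-06). Strap, which binds TGF-beta receptors, and Usp15, a deubiquitinase of receptor SMADs, were 2.75-fold and 2.73-fold higher in the cultures. These were all the other pathway genes called towards the HBC libraries.

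Towards the RBC library, the BMP and Wnt antagonist Sostdc1 was at 3.64 ± 0.620 in HBC cultures and 80.5 in the RBC library (limma adjusted p = 0.00204). The corepressor Tgif2 (16.7 ± 3.38 against 172) and the BMP target Msx2 (5.08 ± 0.336 against 46.2) were also called higher there, 10.3-fold and 9.10-fold. Lrrc32, which holds latent TGF-beta at the surface of regulatory T cells and platelets, was at 1.19 ± 0.636 against 22.2, and it lost its call without HBC culture 1 (limma adjusted p = 0.0640) and under quantile normalization (0.0938). The target genes thus did not share a direction, with Cdkn2b higher in the cultures and Msx2 higher in sorted RBCs. Of 60 tested markers of other cell types, 56 were also called higher there, beside 34.2% of all genes tested. For 34 of the 60 the filter on low values fixed the direction, and among the other 26, 24 were called higher there. The part of other cell types in these values was not tested.

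All 6 members called higher in HBC cultures kept that call under each of the up to 12 other processing choices that tested them. For Grem1 the filter fixed the direction. The choice of the adjusted p alone only drops the fold minimum, so no call could be lost under it. How often calls among all genes were kept was not counted. Of the 24 called higher in sorted RBCs, 15 kept the call under each choice that tested them, and 9 lost it under at least 1, namely Tgfb3, Bmp1, Bmp2, Bmp5, Bmp7, Smad5, Smad7, Nog and Skil. None of the 30 changed direction under these choices.

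**Figure D4:**
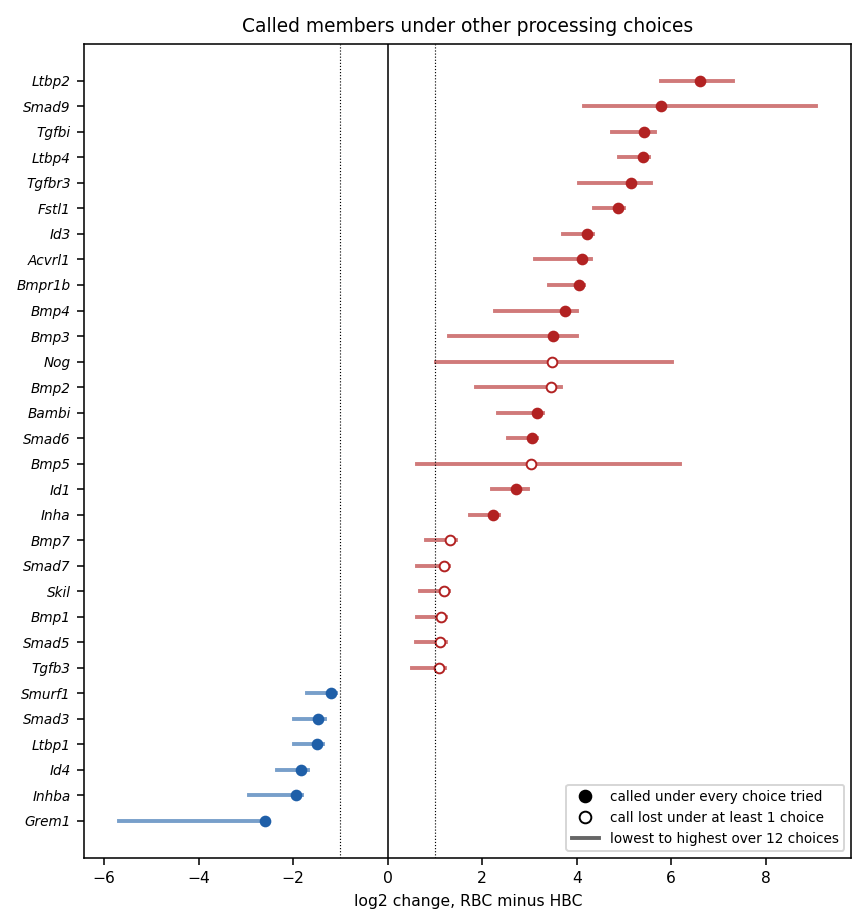
For the 30 called members, the point is the log2 change (RBC minus HBC) and the line runs from the lowest to the highest value over the 12 other processing choices, with dotted lines at the 2-fold limits. The 9 open points lost the call under at least 1 choice, and no line crosses 0.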

How the data were processed

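The authors deposited 1 table of FPKM values, 1 column per library and 1 row per gene symbol. Per the submitters' processing notes, STAR, Cufflinks 2.2.1, Cuffnorm and the build mm9 were used, with no role or order. Annotation, filters and the use of strand are not stated. In genes below 4 in all libraries, 12.4% to 26.0% of ratios between a pair of libraries lay within 2% of 1. A single read was taken to be worth about the same in each, and the deposited FPKM to carry library depth. This was assumed and not tested. Each library was scaled by its median ratio to a geometric-mean reference (0.845, 1.05 and 1.07 for HBC cultures, 1.06 for RBC), taken over 11134 genes that reached 10 in every library. Genes with a mean of the group means of at least 1 (16438) were tested on log2(value + 1) with limma 3.58.1 in R 4.3.3, with a mean-variance trend, two-sided, after a test on simulated data. On that log2 scale, changes of low genes are understated. A printed fold is a ratio of scaled values without the pseudocount. A listed 0 may be a failed estimate, so genes at 0 in all HBC libraries carry no p-value or fold. Members and lists were chosen with earlier results of these data known. Values in every library were given, by role, for up to 4 called members of largest change and the most abundant member, and for the other pathway genes up to 5 called genes per direction above 0 in each HBC library were named. Of these, 1 is not reported here. In GENCODE M21, 18 members share exon bases with another gene, 7 of them with a gene in the table.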

Additional observations from a re-analysis of the deposited data

How the results depend on the processing

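No paired analysis was possible because the groups share only 1 replicate number. The count of members higher in HBC libraries was 6, and 11 on the adjusted p alone. Counts of other pathway genes moved by over 1.5 times from 21 to 13 (higher in the RBC library, quantile normalization) and from 4 to 7 with equal medians, 8 under quantile normalization and 7 on the adjusted p alone (higher in HBC libraries). Leaving out 1 HBC library gave 22 to 25 members higher in the RBC library and 6 to 6 in HBC libraries, and 18 to 20 and 4 to 4 other pathway genes. Direction turned only for uncalled members, as log2 change: with equal medians for Inhbb (-0.054), Tgfbr1 (-0.45), Bmpr1a (-0.24), Smad2 (-0.39), Smad4 (-0.32) and Smurf2 (-0.40). Under quantile normalization it turned for Tgfb2 (-0.084), Inhbb (-0.27), Acvr2b (-0.48), Smad2 (-0.16), Chrd (-0.95) and Fstl3 (-0.52). Using unscaled values, or equal sums, turned Bmp6 (0.018 and 0.0061), Smad1 (0.085 and 0.073) and Fst (0.092 and 0.080). Leaving out 1 HBC replicate moved Smad1 between -0.12 and 0.080, and turned it without HBC replicate 2. The cause was not tested. Depth is unknown, so low values carry no counting interval.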
